A study of Mus musculus with 24 samples.

Results

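Forebrain of TgCRND8 mice at day 150 was compared with forebrain of TgCRND8 mice at day 80, the later interval of a time course of amyloid build-up. TgCRND8 mice (transgene APPSwe/Ind) carry a human amyloid precursor protein gene with the Swedish and Indiana mutations. As background, this transgene is driven by the Syrian hamster prion protein promoter and is expressed widely in the brain. The samples were chosen by their titles: 4 TgCRND8 mice aged 150 days and 4 TgCRND8 mice aged 80 days, 8 of the 24 arrays of the series. The same interval in wild-type littermate controls, 4 mice aged 150 days and 4 aged 80 days, served to show what age did without the transgene. TgCRND8 and control mice of 70 days, 4 of each, entered the statistical model only to estimate the spread between mice. All mice were untreated as far as the labels say, and each was measured once, on its own array. The tissue was forebrain after the olfactory bulb and the cerebellum with brainstem had been cut away.

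In this strain amyloid plaques form in cortex and hippocampus between the younger and the older age. Microglia, the phagocytes of the brain, gather at plaques and are known to switch on a programme that depends on the lipid receptor TREM2 and its signalling partner TYROBP; its genes encode lysosomal proteases, protease inhibitors and surface receptors. Astrocytes near plaques become reactive and thicken their processes with the filament protein GFAP. RNA of whole forebrain mixes all its cells, so more cells of a type and more RNA per cell cannot be told apart in any value given here.

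The values are log2 signals of 18193 genes, with 1 probe set per gene, and differences are day 150 minus day 80 on that scale. Of the 8 TgCRND8 arrays, arrays 2 and 4 of day 80 stood somewhat apart, with lower quartiles of all signals at 3.31 and 3.32 against 3.17 to 3.23 in the other 6, and with the lowest median correlations with other arrays (0.994 and 0.993). Xist, whose RNA silences one X chromosome in females, was low in TgCRND8 arrays 1 and 3 of day 80 (3.32 and 3.07) and high in arrays 2 and 4 of day 80 (9.61 and 9.38) and in all 4 of day 150 (9.55 to 9.84). Within TgCRND8 day 80, the arrays with high Xist were thus the same as those that stood apart, and these features cannot be told apart. Controls of day 80 also held 2 arrays of low Xist and those of day 150 held 0, so in both genotypes the arrays of low Xist lay at the younger age. The Y-linked genes Eif2s3y, Uty and Kdm5d were lower at day 150, by -1.13, -0.70 and -0.41 in TgCRND8 and by -0.94, -0.52 and -0.19 in controls, without passing. The labels do not state the sex of the mice. Where sex and age coincide, their effects cannot be told apart. The tissue label was met by Emx1, a transcription factor of the cerebral cortex (6.57 ± 0.08 and 6.65 ± 0.04 at days 80 and 150, SD, n = 4 each), and by Gabra6 of cerebellar granule cells, which lay below the arrays' lower quartiles (2.94 ± 0.20 and 2.88 ± 0.07, SD, n = 4 each). Array 4 of TgCRND8 day 150 carried the pituitary hormone genes Prl (9.98, with 3.34 the highest in the other 3 mice of that group) and Gh (8.34, with 4.04 the highest). Without that array Cst7 was the only gene past the threshold given below. Mouse App (-0.02, standard error 0.108) and Prnp (-0.02, standard error 0.0773) differed little between ages, and since the labels do not say whether their probe sets bind the transgene's RNA, they cannot check the genotype labels.

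In TgCRND8 forebrain 4 genes rose past the threshold between day 80 and day 150, among them genes of microglial and astrocytic activation. On the astrocyte side this was Gfap, while 19 of 35 reactive astrocyte genes (54.3%) were higher at all. The 4 genes that passed were Cst7, an inhibitor of lysosomal cathepsins made by plaque-associated microglia; Gfap; Ptprc, the CD45 phosphatase of leukocytes and microglia; and Slc14a1, a urea transporter. Cst7 rose 2.57-fold, Gfap 1.88-fold, Ptprc 1.56-fold and Slc14a1 1.41-fold. No gene fell past the same threshold, and p-values throughout measure the spread between mice. At a looser threshold 13 genes were higher, and 11 of those 13 belong to the lists of microglial, lysosomal, complement or reactive astrocyte genes used here. The lists of plaque-associated microglia, resting microglia, complement, lysosome and reactive astrocyte genes held 29, 21, 17, 31 and 35 of the 18193 genes, with some shared. They were chosen with earlier results of these data known, so the 11 are no independent support.

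The test was limma with Benjamini-Hochberg adjustment over all 18193 genes, with an adjusted p under 0.05 to pass. The 4 rises make up 0.022% of the genes tested and the 0 falls 0%. At an adjusted p under 0.10 the 13 genes higher at day 150 make up 0.0715%, and 1 gene was lower. At an unadjusted p under 0.05, 446 genes (2.45%) were higher and 784 (4.31%) were lower. All 4 arrays of day 150 lay above all 4 of day 80 for 201 genes (1.1%) and below them for 271 (1.49%). The count of 4 depended on which day 80 arrays were used. Without the 2 TgCRND8 arrays of low Xist (and the 3 control arrays of low Xist) 322 genes passed, 146 higher and 176 lower, with all 4 genes among them. Without arrays 2 and 4 of day 80, only Cst7 passed.

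**Figure D1:**
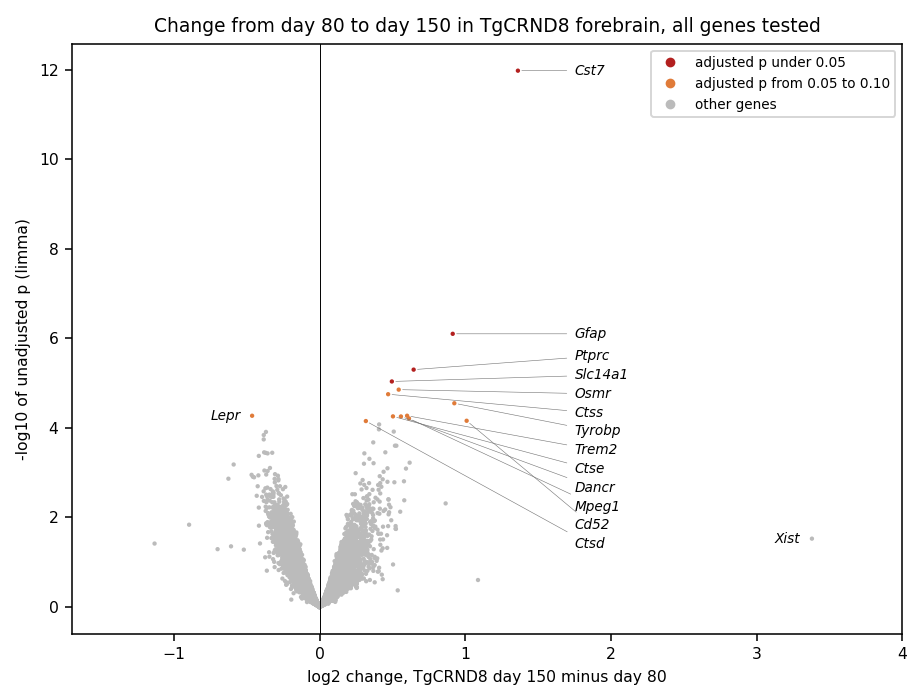
Change of every gene tested from day 80 to day 150 in TgCRND8 forebrain: the horizontal axis is the log2 change and the vertical axis the -log10 of the unadjusted limma p. Each point is 1 gene; the 4 that passed are red, those with an adjusted p from 0.05 to 0.10 are orange, and Lepr is the single orange gene on the lower side. Xist (3.38 log2, adjusted p = 0.69) lies far to the right, and 2 of the day 80 arrays had low Xist.

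Cst7 encodes cystatin F. It read 2.98, 3.35, 3.16 and 3.27 in the 4 mice of day 80, and 4.95, 4.24, 4.54 and 4.48 in the 4 mice of day 150. The ages did not overlap, and the lowest mouse of day 150 stood well clear of the highest of day 80. The means were 3.19 ± 0.16 and 4.55 ± 0.30 (SD, n = 4 each), a rise of 1.36 (standard error 0.105; adjusted p = 1.92e-08, limma with Benjamini-Hochberg adjustment). At day 80 its signal sat at about the lower quartile of the arrays, which lay between 3.19 and 3.32 in that group. In littermate controls Cst7 was 3.13 ± 0.14 at day 80 and 2.96 ± 0.07 at day 150 (SD, n = 4 each). Cst7 passed in each of the 20 alternative analyses that could test it, with rises between 1.23 and 1.48.

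Gfap encodes the glial filament that marks reactive astrocytes. It read 7.27, 7.67, 7.87 and 7.79 at day 80 and 8.26, 8.57, 8.70 and 8.72 at day 150. Again no mouse of day 80 reached the lowest of day 150. The rise was 0.91 (standard error 0.141; 7.65 ± 0.26 to 8.56 ± 0.22, SD, n = 4 each; adjusted p = 0.00722, limma with Benjamini-Hochberg adjustment). The other probe sets of Gfap were higher by 1.13 and 0.97, each without overlap (two-sided exact permutation p = 0.0286, the smallest that 4 against 4 arrays can give). In controls Gfap went from 7.33 ± 0.11 to 7.15 ± 0.15 (SD, n = 4 each). The Gfap call was lost without array 4 of day 150 (adjusted p = 0.0742), without arrays 2 and 4 of day 80 (0.0694) and with only the arrays compared in the model (0.118), by limma with Benjamini-Hochberg adjustment; the rise itself stayed between 0.79 and 1.02.

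Ptprc encodes CD45, a surface phosphatase of all nucleated blood cells that resting microglia carry at low levels. It read 3.94, 3.68, 3.92 and 3.70 at day 80 and 4.27, 4.17, 4.82 and 4.56 at day 150. The ages did not overlap, and the mice of day 150 spread more widely. The rise was 0.65 (standard error 0.112; adjusted p = 0.0304, limma with Benjamini-Hochberg adjustment). A dim probe set of Ptprc did not follow it, at 2.74 on day 80 and 2.70 on day 150. Markers of lymphocytes, which also carry CD45, were mostly lower: 2 of the 12 measured were higher at day 150, with a median change of -0.14, Cd3e at -0.21 and Cd4 at -0.01. That median was -0.08 without array 2 of day 80 and -0.06 without arrays 2 and 4 of day 80. The mean of these 12 genes, each centred on its own mean over all arrays, ranged from -0.04 to 0.20 at day 80 and from -0.16 to 0.02 at day 150. Over all genes 47.9% were higher at day 150, and among the dimmest 40% of genes 29.3%. Which cells gave the Ptprc rise was not tested. Ptprc passed in 4 of the 8 analyses that left out 1 array. The call was lost without array 2 or 4 of day 80 (adjusted p = 0.131 and 0.135) and without array 3 or 4 of day 150 (0.123 and 0.16), and it was 0.687 without both arrays 2 and 4 of day 80, by limma with Benjamini-Hochberg adjustment. It was also lost with array weights, with only the arrays compared, with only the 12 TgCRND8 arrays, and with the mean of the probe sets, which was higher by 0.30; Ptprc passed in 11 of 20 alternatives.

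Slc14a1, the urea transporter, read 4.54, 4.72, 4.90 and 4.64 at day 80 and 5.19, 5.07, 5.27 and 5.25 at day 150. The ages did not overlap. The rise was 0.50 (standard error 0.0898; adjusted p = 0.0419, limma with Benjamini-Hochberg adjustment), and another probe set was higher by 0.19 (two-sided exact permutation p = 0.0286). Controls were also higher at day 150, by 0.20 (4.63 ± 0.11 to 4.83 ± 0.15, SD, n = 4 each). Slc14a1 passed in 2 of the 8 analyses that left out 1 array, the fewest of the 4 genes, namely those without array 3 of day 80 or array 2 of day 150. In the other 6 its adjusted p was between 0.0986 and 0.168 by limma, and without both arrays 2 and 4 of day 80 it was 0.53. Slc14a1 passed in 6 of 21 alternatives; it was also lost without the dimmest 40% of genes (0.0538), with all probe sets (0.055), trend and robust settings (0.0587), Xist as covariate (0.0859), array weights (0.138), only the 12 TgCRND8 arrays (0.146), the mean of its probe sets (0.231) and only the arrays compared (0.426), as adjusted p by limma.

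**Figure D2:**
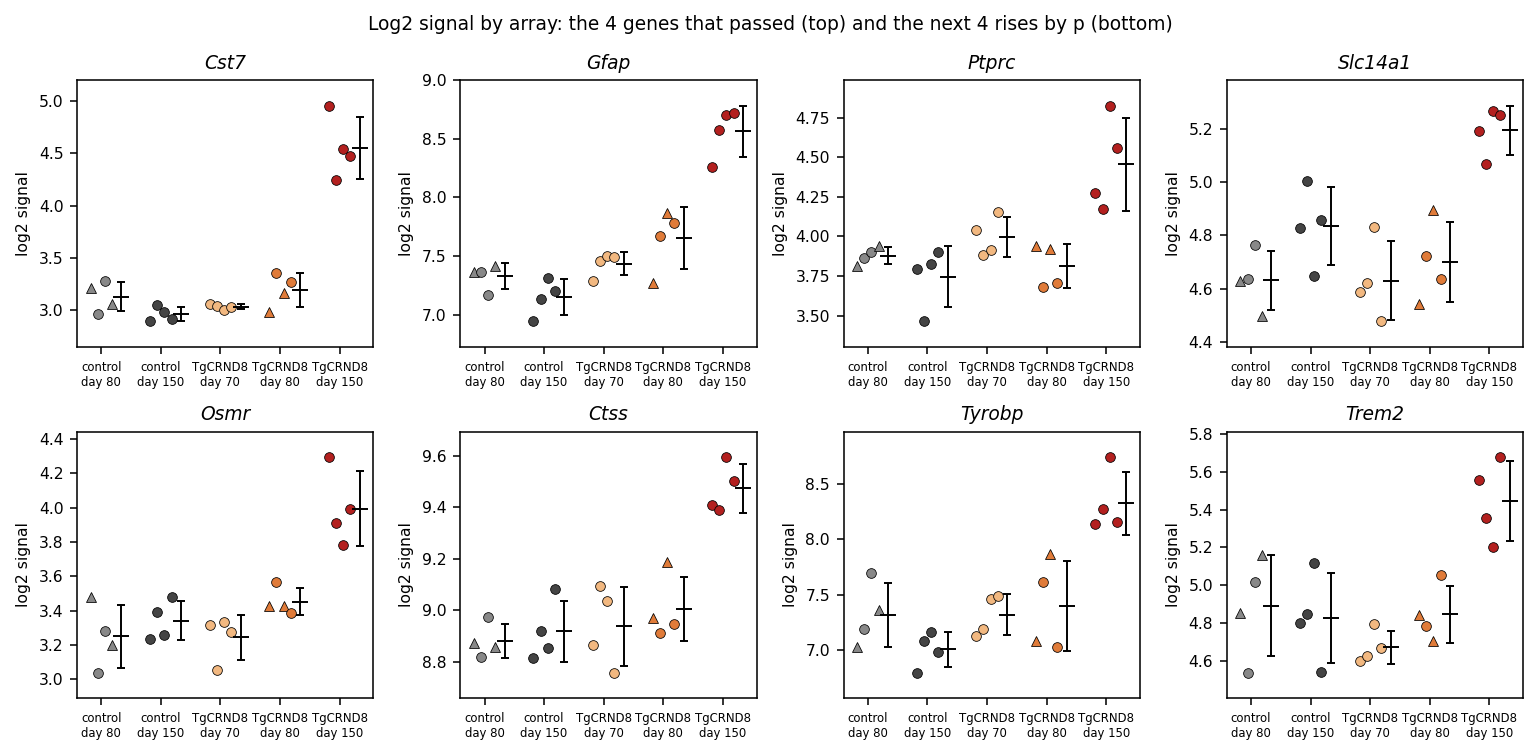
Log2 signal of 8 genes in each array, by genotype and age; points are single mice, triangles are arrays of low Xist, and the bar beside each group is its mean with the SD of 4 mice. The upper genes (Cst7, Gfap, Ptprc, Slc14a1) passed from TgCRND8 day 80 to day 150; the lower genes (Osmr, Ctss, Tyrobp, Trem2) had the next smallest p among genes higher at day 150 and did not pass. In all 8 panels the 4 TgCRND8 mice of day 150 lie above the 4 of day 80.

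The next genes by p value, microglial and astrocytic genes among them, did not pass. Osmr, the oncostatin M receptor subunit found on astrocytes and endothelium, read 3.43, 3.57, 3.42 and 3.39 at day 80 and 4.29, 3.91, 3.78 and 3.99 at day 150, a difference of 0.54 (adjusted p = 0.0509, limma with Benjamini-Hochberg adjustment). Ctss, the cathepsin S protease of microglia, read 8.97, 8.91, 9.19 and 8.95 and then 9.41, 9.39, 9.59 and 9.50, a difference of 0.47 (adjusted p = 0.0537, same test). The other probe sets of Osmr, both dimmer, differed by 0.02 and 0.05, and the mean of its probe sets was higher by 0.20. Neither Osmr nor Ctss overlapped between ages on the probe sets used, and in controls Osmr differed by 0.09 and Ctss by 0.04. Tyrobp, the adaptor through which TREM2 signals, read 7.09, 7.62, 7.86 and 7.03 at day 80 and 8.14, 8.27, 8.74 and 8.15 at day 150. Its difference of 0.92 was of the size of that of Gfap, but the day 80 mice differed more among themselves (SD 0.41; adjusted p = 0.0733 by limma). Trem2 read 4.84, 4.78, 4.71 and 5.05 at day 80 and 5.56, 5.35, 5.20 and 5.67 at day 150, a difference of 0.60 (adjusted p = 0.0915 by limma). Its other, dimmer probe set was lower by 0.12 at day 150, and the mean of both was higher by 0.24.

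The remaining genes between the thresholds had the same adjusted p of 0.0915 by limma with Benjamini-Hochberg adjustment. Cd52, a small glycoprotein anchored on leukocytes, was higher by 1.01, the largest difference after Cst7 in this group (3.86, 4.20, 4.43 and 3.69, then 4.46, 4.95, 5.58 and 5.22). Mpeg1, the perforin-like protein of phagocytes, was higher by 0.61, with array 1 of day 150 at 6.46 and the others at 5.65 to 5.89. The aspartic proteases Ctsd and Ctse were higher by 0.32 and 0.50; a dim probe set of Ctse was lower by 0.14. Dancr, a long non-coding RNA, was higher by 0.56 although its ages overlapped (4.47 to 5.16 at day 80 and 5.08 to 5.58 at day 150). Lepr, the leptin receptor, was the gene on the lower side, at 4.44, 4.70, 4.35 and 4.44 on day 80 and 4.01, 4.21, 3.92 and 3.94 on day 150 (-0.46). Its 3 dimmer probe sets moved by -0.01 to 0.07, and the mean of its probe sets by -0.10.

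The promoters of the genes that rose were searched for 2 short motifs. Those of Cst7, Gfap and Ptprc are printed because these genes rose together; Slc14a1 was not matched. The motifs were GAGGAA, the core that PU.1 binds (a myeloid transcription factor encoded by Spi1), and TTCNNNGAA, the pattern of STAT factors, which act below the oncostatin M receptor. Sequences are the RefSeq windows of GRCm38.p6, from 250 bases before to 50 bases after a gene's start, on the gene's strand, with matches on either strand in capitals. The windows lie at chr2:150570165-150570464 (plus strand) for Cst7, chr11:102897151-102897450 (minus strand) for Gfap and chr1:138175256-138175555 (minus strand) for Ptprc.
Cst7: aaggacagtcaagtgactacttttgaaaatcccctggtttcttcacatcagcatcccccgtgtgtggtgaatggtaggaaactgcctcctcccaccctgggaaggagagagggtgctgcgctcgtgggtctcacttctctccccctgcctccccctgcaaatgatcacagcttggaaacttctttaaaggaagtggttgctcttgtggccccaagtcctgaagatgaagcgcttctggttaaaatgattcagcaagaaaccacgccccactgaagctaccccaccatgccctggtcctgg
Gfap: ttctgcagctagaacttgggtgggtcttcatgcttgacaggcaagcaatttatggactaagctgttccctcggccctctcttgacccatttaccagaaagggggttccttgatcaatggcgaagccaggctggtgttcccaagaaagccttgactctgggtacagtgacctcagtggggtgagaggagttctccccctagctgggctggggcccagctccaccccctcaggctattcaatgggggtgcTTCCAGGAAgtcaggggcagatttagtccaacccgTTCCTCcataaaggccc
Ptprc: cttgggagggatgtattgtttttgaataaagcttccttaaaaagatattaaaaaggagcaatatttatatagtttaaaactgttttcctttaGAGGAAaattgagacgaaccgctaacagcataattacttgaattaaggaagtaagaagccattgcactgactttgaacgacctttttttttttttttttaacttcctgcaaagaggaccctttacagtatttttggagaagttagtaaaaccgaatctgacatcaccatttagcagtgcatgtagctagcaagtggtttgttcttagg
The Gfap window held the STAT pattern across the start itself (first base at -2) and a PU.1 core on the opposite strand at position 34. The Ptprc window held a PU.1 core at -158, while the other window of Ptprc and the window of Cst7 held neither motif. These letters are common: GAGGAA was in 28.3% and TTCNNNGAA in 8.3% of all 32851 windows, and in at least 1 window of 31.3% and 9.55% of genes. Among the 13 genes higher at an adjusted p under 0.10, 9 had windows in the table, 5 of them with GAGGAA (Gfap, Ptprc, Osmr, Ctss and Trem2) and 1 with TTCNNNGAA. The STAT pattern and the PU.1 core do not overlap in these windows, and a match is only a match of letters.

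In littermate controls the 4 genes that rose in TgCRND8 mice differed by -0.18 to 0.20. Over the same interval, no gene passed in controls (0%, limma with Benjamini-Hochberg adjustment), with 620 genes (3.41%) at an unadjusted p under 0.05. The control changes were -0.17 for Cst7, -0.18 for Gfap, -0.13 for Ptprc and 0.20 for Slc14a1, with -0.31 for Tyrobp and -0.06 for Trem2. The control gene with the smallest p was Btg2, an antiproliferative immediate early gene, higher by 1.12 (adjusted p = 0.0875 by limma). In TgCRND8 mice Btg2 was higher by 0.46.

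The difference between the genotypes' age changes was tested as an interaction. It passed for Cst7 alone: the change with age was 1.53 larger in TgCRND8 than in control mice (standard error 0.149; adjusted p = 2.66e-06, limma with Benjamini-Hochberg adjustment). That is 0.0055% of genes, and 1003 genes (5.51%) had an unadjusted p under 0.05. Gfap followed with an interaction of 1.09 (adjusted p = 0.0896 by limma), then Teddm2 with -0.61 (a transmembrane protein gene), Ptprc with 0.78 (both 0.207) and Tyrobp with 1.23 (0.215). For Slc14a1 the interaction was 0.29 (adjusted p = 0.881), so its rise in TgCRND8 mice was not shown to differ from that of controls. Among the analyses that left out 1 array, Gfap passed this test when TgCRND8 array 3 of day 80 or array 1 of day 150 was left out.

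Genes of plaque-associated microglia were higher at day 150 nearly throughout. Of the 29 measured, 27 were higher, 1 (Cst7) rose past the threshold, and 11 did not overlap between ages in the upward direction and 0 in the downward, against 1.1% and 1.49% of all genes. Their median change was 0.30, against -0.01 over all genes and 0.0034 for the same 29 genes in controls. Cst7 (1.36), Cd52 (1.01) and Tyrobp (0.92) had the largest changes of the list, and Cd68, the macrosialin of lysosomal membranes, followed with 0.62 (4.73, 4.70, 5.09 and 4.81, then 5.41, 5.36, 5.24 and 5.80). The lysozymes Lyz1 and Lyz2 were higher by 0.58 and 0.47, with overlapping ages. The receptors Clec7a and Itgax, known markers of microglia at plaques, were each higher by 0.30, Itgax without overlap (3.67 to 3.90, then 3.98 to 4.21) and Clec7a with overlap at the dim end of the scale. B2m, the light chain of class I histocompatibility molecules, was higher by 0.30 (9.07 to 9.24, then 9.40 to 9.56). Apoe, the main lipid carrier of glia, differed by 0.10 and by the same 0.10 in controls. The members that were not higher were Timp2 (-0.08) and Ch25h (-0.02).

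The mean of the 29 genes, each centred on its own mean over all arrays, ran from -0.08 to 0.09 in TgCRND8 mice of day 80 and from 0.20 to 0.41 in those of day 150. In controls it ran from -0.12 to -0.05 at day 80 and from -0.12 to -0.05 at day 150. The 4 TgCRND8 arrays of day 150 were above every array of the other 3 groups. Without the arrays of low Xist the median change of the list was 0.26, and without arrays 2 and 4 of day 80 it was 0.29.

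**Figure D3:**
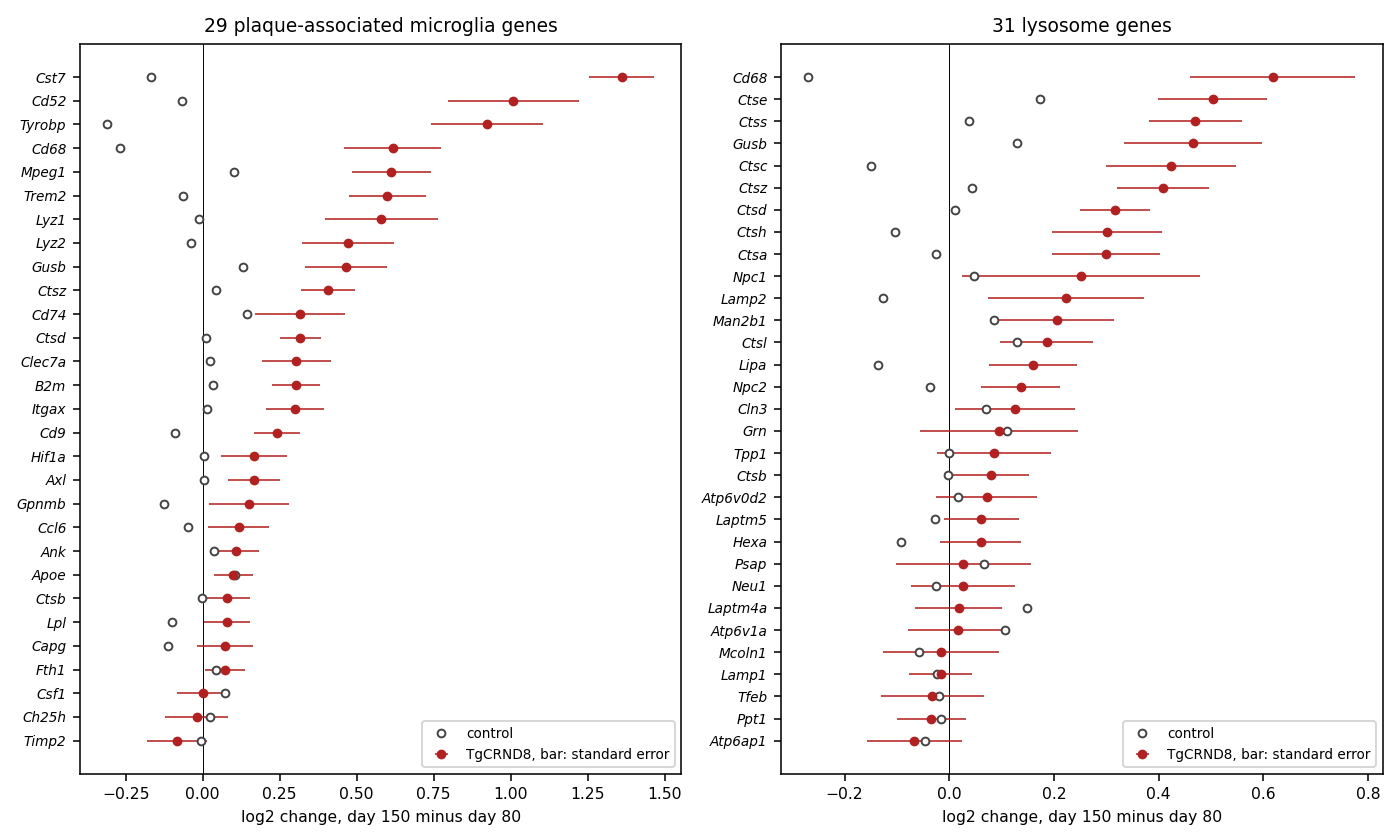
Log2 change from day 80 to day 150 for each measured gene of plaque-associated microglia (left) and of lysosomes (right), sorted by the change in TgCRND8 mice. Filled points are TgCRND8 with the standard error of the limma fit, open points are littermate controls. Of the plaque-associated genes 27 of 29 lie right of 0 in TgCRND8, with a median of 0.30, and the controls scatter around 0.

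Genes of resting microglia had a median nearer 0. Of 21 measured, 14 were higher, with a median change of 0.06, and Ptprc was the 1 that passed. P2ry12, the purine receptor of resting microglia, differed by -0.04, Cx3cr1, the fractalkine receptor, by 0.08, Csf1r, the growth factor receptor on which microglia depend, by 0.11, and Tmem119 by -0.12. Aif1, which encodes the IBA1 protein stained as a general marker of microglia, differed by 0.11 with overlapping ages. Larger differences, none of them past the threshold, were those of Gpr34 (0.52) and of the transcription factor Irf8 (0.40). Spi1, which encodes PU.1, was higher by 0.20 without overlap.

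Of 17 complement genes, 11 were higher (64.7%, against 47.9% of all genes) and 0 passed, with a median of 0.02. The ones that stood out were the 3 chains of C1q, the molecule that starts the classical pathway and that microglia make. C1qa read 7.27, 7.57, 7.66 and 7.47 at day 80 and 7.89, 7.77, 7.89 and 7.89 at day 150, a difference of 0.37. C1qc read 6.48, 6.58, 6.80 and 6.38 and then 7.08, 7.03, 7.20 and 6.96, a difference of 0.51, and C1qb was higher by 0.40. On the probe sets used, these 3 of the 17 genes were without overlap, all upward, against 1.1% of all genes upward and 1.49% downward. None of the chains passed (adjusted p from 0.124 to 0.528, limma with Benjamini-Hochberg adjustment). The other probe sets of C1qb were higher by 0.19 and 0.36 with overlapping ages (two-sided exact permutation p = 0.257 and 0.114). In controls the chains differed by -0.03, -0.21 and -0.11. Vsig4 and C5ar1, receptors of the later cascade, differed by -0.0026 and -0.05.

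Lysosomal genes were higher as a group: 26 of 31, with a median of 0.13 against -0.0022 in controls, and 0 passed. Without overlap were 7 in the upward direction and 0 in the downward, against 1.1% and 1.49% of all genes. Over all genes 47.9% were higher, and in the brightest 30% of genes 66.4%. Ctsz, cathepsin Z, read 7.44, 7.55, 7.87 and 7.75 at day 80 and 8.09, 7.91, 8.09 and 8.14 at day 150 (0.41; adjusted p = 0.102, limma with Benjamini-Hochberg adjustment). Ctsd, the main aspartic protease, read 8.90, 8.89, 9.04 and 8.98 and then 9.29, 9.29, 9.19 and 9.32, and Ctsc, which activates other proteases, was higher by 0.42. Gusb, the beta-glucuronidase, was higher by 0.47 without overlap (4.28 to 4.63, then 4.67 to 5.15). Lamp1, a coat protein of the lysosomal membrane, differed by -0.02, Tfeb, the transcription factor of lysosome genes, by -0.03, and Atp6v1a, a subunit of the proton pump, by 0.02. Ctsb, cathepsin B, differed by 0.08.

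Reactive astrocyte genes split. Of 35 measured, 19 were higher (54.3%, against 47.9% of all genes), Gfap rose, and the median was 0.04 (all genes -0.01). Without overlap in the upward direction were 7, against 1.1% of all genes. Besides Gfap and Osmr these were Vim, a filament protein that assembles with GFAP (6.56, 6.73, 6.86 and 7.001, then 7.36, 7.02, 7.25 and 7.18; 0.42, adjusted p = 0.502 by limma), Cd14 (0.45), Cp (0.26), Cd44 (0.24) and Serpina3n (0.19). Both other probe sets of Vim were higher too, by 0.48 and 0.86 (two-sided exact permutation p = 0.0286 each). Cd14 is the lipopolysaccharide co-receptor and is made by microglia as well, Cp is the copper ferroxidase ceruloplasmin, Cd44 a hyaluronan receptor and Serpina3n a serine protease inhibitor. Lcn2 (-0.05), Timp1 (-0.04) and Steap4 (-0.08), known for sharp increases after acute inflammation, were not higher. Stat3, which carries the oncostatin signal to the nucleus, differed by 0.19 with overlap and Socs3, its feedback inhibitor, by 0.08.

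Genes of resting astrocytes had a similar median with no gene that passed. Of 20 measured, 14 were higher and 0 passed, with a median of 0.04 and 0 without overlap in the upward direction. The single gene without overlap was Gja1, the gap junction protein of astrocytes, which differed by -0.18 and did not pass (adjusted p = 0.666, limma with Benjamini-Hochberg adjustment). Aqp4, the water channel of astrocyte endfeet, differed by 0.03, Slc1a3, a glutamate transporter, by 0.01, and Aldh1l1, a folate enzyme used as a general astrocyte marker, by 0.15. Slc1a2, the main glutamate transporter, differed by 0.13.

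Other immune lists had medians between -0.04 and 0.10. All 7 measured genes of the phagocyte NADPH oxidase were higher, with a median of 0.10; Cyba, the membrane subunit p22phox, was higher by 0.32, and Cybb, its partner, by 0.16, both with overlap. Of 18 antigen presentation genes 13 were higher in TgCRND8 and 14 in controls, with medians of 0.05 and 0.04. Of 20 cytokine and chemokine genes 8 were higher, with Il1b at 0.03, Tnf at -0.16 and Il6 at -0.01, all by signals that overlapped. Of 21 interferon-stimulated genes 7 were higher, with a median of -0.04. No gene of these 4 lists passed (limma with Benjamini-Hochberg adjustment); at an unadjusted p under 0.05 the counts higher were 1, 3, 3 and 1 in the order given and the counts lower 0, 0, 1 and 2, against 2.45% and 4.31% of all genes. Those lower were Nfkbia, an inhibitor of NF-kappaB signalling (-0.21), and the interferon-stimulated Mx1 (-0.20) and Trim30a (-0.25).

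**Figure D4:**
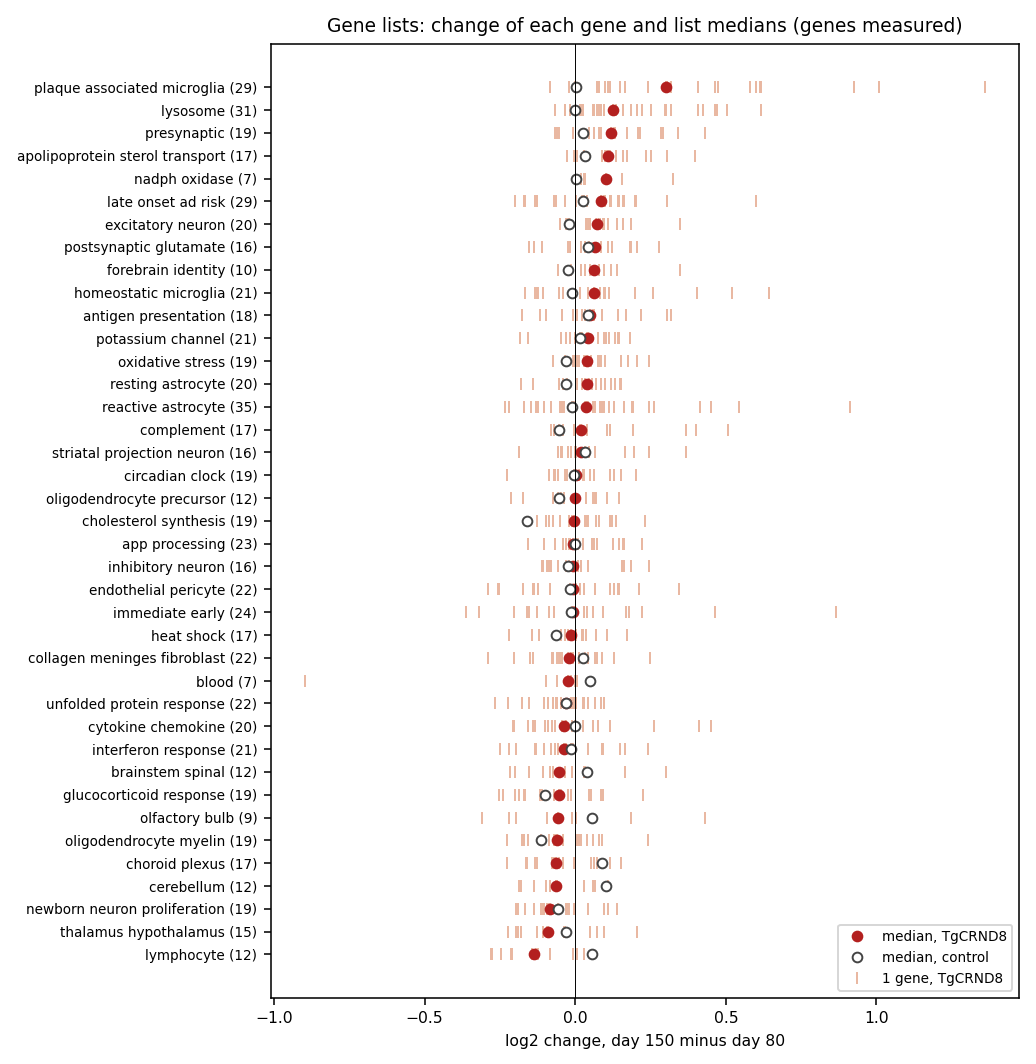
Change from day 80 to day 150 for 39 gene lists, with the number of genes measured in brackets: short ticks are single genes in TgCRND8 mice, filled points are list medians in TgCRND8 and open points list medians in littermate controls, in log2 units. Plaque-associated microglia stand at 0.30 and lysosome genes at 0.13, and lymphocyte genes are lowest at -0.14.

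No neuronal gene of the lists passed. Of 20 genes of excitatory neurons 16 were higher, with a median of 0.07, and of 16 genes of inhibitory neurons 8 were higher, with a median of -0.01. Over all genes 47.9% were higher, and in the brightest 30% of genes 66.4%. Without arrays 2 and 4 of day 80 the excitatory median was 7.07e-05 and the inhibitory median -0.02. Slc17a7, the vesicular glutamate transporter, differed by 0.08 and Gad1, which makes GABA, by -0.03. Presynaptic genes were higher in 15 of 19 cases, with a median of 0.12 (0.09 without arrays 2 and 4 of day 80) against 0.02 in controls. Within them Rims1, a scaffold of the active zone, read 8.95, 8.96, 9.10 and 9.03 at day 80 and 9.40, 9.31, 9.35 and 9.35 at day 150 (0.34; adjusted p = 0.288, limma with Benjamini-Hochberg adjustment). Rims1 was the opposite in controls, at -0.20, with an interaction of 0.54 that did not pass (adjusted p = 0.349 by limma). Another probe set of Rims1, at 8.79 on day 80 and 8.99 on day 150 in TgCRND8 mice, overlapped between ages. It was higher by 0.20 (two-sided exact permutation p = 0.0571). Bsn and Pclo, the large active zone proteins, differed by 0.43 and 0.22, with control differences of 0.40 and 0.20. Of 24 immediate early genes 10 were higher; Arc and Fos, which follow recent neuronal firing, differed by 0.06 and 0.09 with wide overlap.

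No gene of the myelin or cholesterol synthesis lists passed in TgCRND8 mice. Of 19 myelin genes 8 were higher, with a median of -0.06, and in controls 3 were higher, with a median of -0.11. Mbp differed by -0.07 and Mog by -0.18, against -0.47 for Mog in controls. Tspan2 alone did not overlap between ages, at -0.23, with -0.22 in controls. Of 19 cholesterol synthesis genes 9 were higher, with a median of -0.0034, while in controls 3 were higher, with a median of -0.16. Hmgcs1, which makes the first committed precursor, differed by 0.14 in TgCRND8 and by -0.20 in controls (interaction 0.34, adjusted p = 0.881 by limma). For 18 of the 19 cholesterol genes the change was more positive in TgCRND8, which held for 9010 of all 18193 genes. None of the 19 cholesterol interactions passed, and what set the list apart was not tested. Of 17 genes of apolipoproteins and sterol transport 14 were higher, with a median of 0.11 against 0.03 in controls; Abca1, the cholesterol exporter, was higher by 0.31 without overlap and by 0.24 in controls.

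The lower side had many dim genes and no gene that passed. Of the 784 genes lower at an unadjusted p under 0.05, 574 were among the dimmest 40% of genes (7277 genes), where the median change was -0.06 and 29.3% of genes were higher; in the brightest 30% the median was 0.03 and 66.4% were higher. Arrays 2 and 4 of day 80 had the highest lower quartiles. Without these arrays 504 genes, higher or lower, had an unadjusted p under 0.05, against 1230 in the model as reported. With the arrays of low Xist left out instead, 3474 genes did. The cause of the pattern was not tested. Next to Lepr, Hif3a, a hypoxia-inducible transcription factor that glucocorticoids also raise, read 5.33, 5.43, 5.47 and 6.22 at day 80 and 5.06, 5.01, 5.19 and 4.83 at day 150 (-0.59; adjusted p = 0.342, limma with Benjamini-Hochberg adjustment). The granulocyte calcium-binding genes S100a9 and S100a8 differed by -0.63 and -0.42 with overlapping ages. Markers of newborn neurons and of dividing cells were lower in 15 of 19 cases, with a median of -0.08 in TgCRND8 and -0.06 in controls. The TgCRND8 median was -0.06 without arrays 2 and 4 of day 80. For the members outside the dimmest 40% of genes it was -0.01.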

How the data were processed

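Per the labels' protocols, forebrain RNA of each mouse was extracted with TRIzol, cleaned on columns, labelled with biotin by in vitro transcription and put on Affymetrix mouse arrays. The authors deposited log2 signals, taken here as they stand, with array medians between 4.28 and 4.38. They were normalized by a method not given in the sources used here. Of 45101 probe sets, 64 were controls, 34945 had a single symbol in the platform's annotation, 932 had several and 9160 had none. A gene was represented by its brightest probe set (mean of the 24 arrays), which gave 18193 genes, of which 18032 matched RefSeq by name. C4b and 1 further gene are not reported here.

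One limma model held the 6 groups of genotype and age (18 residual and 7.47 prior degrees of freedom) and gave the age change in each genotype and their interaction. The median standard error of the TgCRND8 change was 0.0977; having 4 mice per group limits precision. Other probe sets of named genes were compared by two-sided exact permutation of the 8 arrays. Gene lists (41, with 737 of 809 entries measured) are described by counts and medians only. The members and lists were chosen with earlier results of these data known.

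The rule for naming genes covered those that passed, the 5 smallest p beyond them, and the 5 smallest p of the control change and of the interaction. It also covered the passing or first 2 members of each list, and a set of APP, glial, myelin, neuronal and activity genes. Not every gene of the rule is discussed: Zkscan16, Grb14 and Mal of the control change and first members of some lists are left out. Members named beyond these, the genes with an adjusted p under 0.10, Hif3a, S100a8 and S100a9 were chosen after their values were seen.

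On simulated arrays, 79% of 100 genes shifted by 0.5 log2 and 100% of 100 shifted by 1 passed in this comparison of 18193 genes, with 9 false calls among 188. The simulated noise was independent between arrays and genes, without differences between whole arrays or in Xist. It also held far more changed genes than the 4 that passed here, which eases the adjusted threshold. These shares therefore check the code and do not give the power in the real arrays, where Cd52 at 1.01 did not pass. Promoter windows were read from RefSeq sequences of GRCm38.p6. Alternatives were median centring, quantile normalization, a filter on the dimmest 40% of genes, averaging a gene's probe sets, all probe sets, trend and robust settings, array weights, only the arrays compared, only the 12 TgCRND8 arrays, a replicate block, Xist as covariate, leaving out arrays of low Xist (under 6.46), an adjusted p under 0.10, and leaving out each array. Leaving out TgCRND8 day 80 arrays 2 and 4 together was added after seeing the data. The model was fitted with limma 3.58.1 in R 4.3.3, and plots were drawn with matplotlib 3.10.9 in Python 3.11.15.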

Additional observations from a re-analysis of the deposited data

Results flagged for a closer look

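Among 100 genes, each checked in the 2 TgCRND8 groups (200 checks in all), 8 single arrays stood far from the other 3 of their group; chance alone gives about 1 in 20 such results. Array 4 of day 150 read 9.98 for the pituitary hormone gene Prl, with 3.34 the nearest other value, and 8.34 for Gh, with 4.04 the nearest. Array 2 of day 150 read 5.01 for Mrgprf (nearest 4.72) and 7.77 for C1qa (nearest 7.89). Array 3 of day 150 read 11.7 for Slc1a2 (nearest 11.9) and 5.92 for Per1 (nearest 6.19). Array 1 of day 80 read 12.03 for Slc1a2 (nearest 11.6), and array 4 of day 80 read 6.23 for Col1a2 (nearest 5.82).

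The change with age differed between the genotypes for Cst7: it was 1.53 larger in TgCRND8 than in control mice (adjusted p = 2.66e-06, limma interaction with Benjamini-Hochberg adjustment, higher in 4 of 4 TgCRND8 mice of day 150 than in any of day 80).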

How the results depend on the processing

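The count of genes past the threshold in TgCRND8 mice, 4 in the model as reported, was 6 after quantile normalization, 7 after median centring, 5 with trend and robust settings and 4 with Xist as covariate. Without the dimmest 40% of genes it was 1 (Gfap), and Cst7 and Ptprc are then not tested. The count was 2 with the mean of a gene's probe sets, 7 with all probe sets and 2 with array weights. With only the arrays compared it was 1, and with only the 12 TgCRND8 arrays 2. It was 9 with a replicate block, 14 at an adjusted p under 0.10, 322 without the arrays of low Xist, and 1 without TgCRND8 day 80 arrays 2 and 4 together. With 1 array left out it ran from 1 to 7: without array 1 or 3 of day 80 it was 7, without array 2 or 4 of day 80 it was 2, and without array 4 of day 150 it was 1. The control count, 0, was 1 (Btg2) with array weights, at an adjusted p under 0.10 and without the arrays of low Xist, and 0 to 1 with 1 array left out. The interaction count, 1, was 0 without the dimmest genes, 2 with the mean of probe sets, with all probe sets, with only the arrays compared and at an adjusted p under 0.10, 3 with a replicate block, 16 without the arrays of low Xist, and 1 to 3 with 1 array left out. The deviations of same-numbered TgCRND8 mice from their group means correlated at 0.17, 0.15, 0.37 and -0.03, and 1 of the 4 correlated best with its own number. So few pairs cannot show whether arrays of the same number shared a batch, and this was not tested. Among 100 genes and 2070 recomputed values, 27 lost and 30 gained the threshold, 0 called changes reversed, and 159 changed sign in genes that did not pass. The medians of the 41 lists moved by more than the spread in 39 of 861 recomputed values; that of plaque-associated microglia stayed between 0.20 and 0.33. The cause of these differences was not tested, apart from the dimmest genes being left out of the test. Signals near the arrays' lower quartiles, as for Cst7, Clec7a and Cybb, limit what a change at the dim end can show.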

Other observations

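Lists of other brain regions and cell types, chosen with earlier results known, gave these values. Of 22 endothelial and pericyte genes 11 were higher at day 150 in TgCRND8 mice, with a median of -0.01. Of 22 genes of meninges and fibroblasts 9 were higher (median -0.02), and of 17 choroid plexus genes 5 were higher (median -0.06, with 0.09 in controls). Of 12 oligodendrocyte precursor genes 6 were higher. Alas2, the first enzyme of haem synthesis in red cell precursors, was lower by 0.90 with overlapping ages, while the other blood genes differed by -0.10 to 0.01. Npas4, an activity-dependent transcription factor of neurons, was higher by 0.86 in TgCRND8 and by 0.70 in control mice, without passing in either.

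Of 29 genes near loci for late-onset Alzheimer disease 20 were higher (69%, against 47.9% of all genes), with a median of 0.09 against 0.03 in controls. Those without overlap in TgCRND8 mice were Trem2 (0.60), Abca1 (0.31) and Spi1 (0.20), all upward. Over all genes 1.1% were without overlap upward and 1.49% downward. Of 23 genes of APP and its processing 11 were higher, with a median of -0.01. Il33, an alarmin of oligodendrocytes and astrocytes, was higher by 0.41 without overlap, and by 0.28 in controls. Igfbp5, an insulin-like growth factor binding protein, was higher by 0.41 (7.47 to 7.74, then 7.87 to 8.26; adjusted p = 0.123, limma with Benjamini-Hochberg adjustment) and by 0.03 in controls.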
